A study of Mus musculus with 4 samples.

Results

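The 10 regulators of messenger RNA decay described here were followed across 4 Affymetrix Mouse Genome 430A 2.0 arrays: Zfp36, Zfp36l1 and Zfp36l2 of the Zfp36 family, Tob1, Tob2, Btg1, Btg2 and Btg3 of the Tob/Btg family, the RNA-binding protein gene Elavl1 and the deadenylase gene Cnot7. All probe sets that the platform annotation lists under these 10 genes were taken, which gave 21 of 22626 probe sets other than controls. The array measures 12393 genes by a probe set with 1 symbol, and 9 of the 10 are among them. The genes were chosen by a reading of these same signals, with their differences over the 4 arrays known, so their values are given as a description, without a test of the difference between the lines. The single Btg3 probe set is listed for both Btg3 and the pseudogene Gm7334, and its signal cannot be assigned to Btg3 alone.

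Proteins of the Zfp36 family bind AU-rich elements in the 3′ untranslated regions of short-lived messages through paired CCCH zinc fingers and recruit the CCR4-NOT complex, which shortens the poly(A) tail. Tob and Btg proteins carry a shared amino-terminal domain that binds the catalytic subunits of CCR4-NOT, Cnot7 among them, and are known as brakes on proliferation. Elavl1 (HuR) binds similar AU-rich sequences and is known mostly for stabilizing the messages it binds. In fibroblasts Zfp36, Zfp36l1 and Btg2 are known as genes that respond early to growth factors.

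The cells were CH10T1/2 mouse fibroblasts, stably transfected with the wild-type PTHR1 (WT line) or with the R150C variant that was found in enchondromas (R150C line). PTHR1 is the receptor for PTH and PTHrP. The Pth1r probe set read 3.2 to 3.9 in all 4 arrays, below the filter level, so the arrays do not show the receptor message in either line, and whether that probe set reads the transfected construct is not given. After a night without serum, cells of each line were given either PTHrP at 1e-07 M or carrier alone, and RNA was taken 1 h later. Each of the 4 groups has 1 array, and the carrier of the WT control is given in the series text, not in its own title. With 1 transfected line per receptor, and as the labels do not say whether a line is a single clone, receptor and line cannot be told apart.

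The deposited signal is a linear intensity without detection calls. Probe sets whose mean of log2(signal + 16) reached the median over probe sets were kept, 11313 in all, a level that turns back to a signal of 46.8. Of the 21 member probe sets 19 were kept, with at least 1 for each of the 10 genes. Differences are on the log2(signal + 16) scale after centring each array on the median of the kept probe sets. Without replicates, the error given after ± is an SD between arrays, taken over the 1000 kept probe sets nearest in level from how far the PTHrP response of one line departed from that of the other. Over all kept probe sets this SD was 0.29. It measures the scatter between these arrays and not that between cultures. All 8 fibroblast markers, among them Col1a1, Col1a2 and Vim, were kept, against 4 of 18 markers of leukocytes, endothelium, epithelium and neurons. The Gapdh 3′ to 5′ signal ratio was 0.845 and 0.991 in the WT and R150C control arrays and 1.17 and 1.21 after PTHrP, so it was higher in both treated arrays.

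The message of Zfp36l2, a destabilizer of AU-rich messages, was the clearest difference within its family. Its bright probe set read 841.7 and 871.6 in WT cells, without and with PTHrP, and 2608 and 2586 in R150C cells. Both R150C arrays lay far above both WT arrays, and within each line the arrays nearly coincided. The difference between the lines was 1.62 ± 0.23 in control medium and 1.52 ± 0.23 under PTHrP, or 3.08-fold and 2.87-fold. By the mean of these differences it held rank 62 from the top among the 11313 kept probe sets. The other probe sets of Zfp36l2 were dim and below the filter, and did not share it. One read 29.7 and 16.8 in WT cells and 15.9 and 33.5 in R150C cells, and the dimmest stayed between 6.4 and 7.8. The difference therefore rests on 1 of 3 probe sets, and with the mean of all 3 it was 0.35 in control medium and 0.71 under PTHrP.

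Zfp36 itself, the founding member also called tristetraprolin, read 151.3 and 146.8 in WT cells and 147.0 and 129.7 in R150C cells. All 4 arrays lay close together, and the line differences of -0.03 ± 0.29 and -0.19 ± 0.29 were smaller than the spread between arrays. Zfp36l1, the third member, read 242.6 and 220.2 in WT cells and 184.4 and 250.4 in R150C cells by its brighter probe set. Here the R150C control array was the lowest and the R150C PTHrP array the highest, so the lines overlapped. Its differences of -0.36 ± 0.26 and 0.14 ± 0.26 had opposite signs in the 2 media. The dimmer Zfp36l1 probe set read 80.3, 62.4, 73.3 and 69.1 in the same order, also with overlap.

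In the Tob/Btg family the message of Tob1, an inhibitor of proliferation that links RNA-binding proteins to the CCR4-NOT deadenylase, was lower in the R150C line. Its only probe set read 376.6 and 313.8 in WT cells and 121.2 and 122.8 in R150C cells. Both WT arrays exceeded both R150C arrays without overlap. The difference was -1.51 ± 0.26 in control medium and -1.28 ± 0.26 under PTHrP, which makes Tob1 2.84-fold and 2.43-fold lower in the R150C line. By the mean of the differences it held rank 17 from the bottom among 11313 kept probe sets.

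Its closest relative, Tob2, did not show this. It had 4 probe sets, whose differences between the lines ran from -0.01 to 0.29 in control medium and from -0.26 to 0.14 under PTHrP. The brightest read 166.6 and 177.8 in WT cells and 204.9 and 202.0 in R150C cells. Those values were slightly higher in the R150C line, by 0.29 ± 0.27 and 0.14 ± 0.27, about the spread between arrays or less.

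The Btg genes leaned the other way from Tob1. Btg1, an antiproliferative gene linked to quiescence, read 804.7 and 861.3 in WT cells and 1045 and 1083 in R150C cells by its brighter probe set, and 321.3, 312.6, 467.1 and 479.8 by the dimmer in the same order. In both probe sets the R150C arrays lay above the WT arrays. The differences were 0.38 ± 0.23 and 0.30 ± 0.23 in the first and 0.53 ± 0.23 and 0.56 ± 0.23 in the second.

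Btg2, a target of p53 and an early response gene, read 287.9 and 248.6 in WT cells and 517.6 and 366.1 in R150C cells by its brighter probe set. The R150C control array was the highest, and both R150C arrays lay above both WT arrays. The differences of 0.82 ± 0.25 and 0.50 ± 0.25 were larger than the spread, yet below 2-fold. The other probe set read 210.3, 176.8, 240.6 and 218.0, with differences of 0.19 ± 0.26 and 0.25 ± 0.26, so that the probe sets had the same sign and unequal sizes. The mean of both was 0.51 in control medium.

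The probe set shared by Btg3 and Gm7334 read 768.2 and 723.1 in WT cells and 1228 and 1122 in R150C cells. Both R150C arrays were higher, by 0.68 ± 0.24 and 0.59 ± 0.24.

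**Figure D1:**
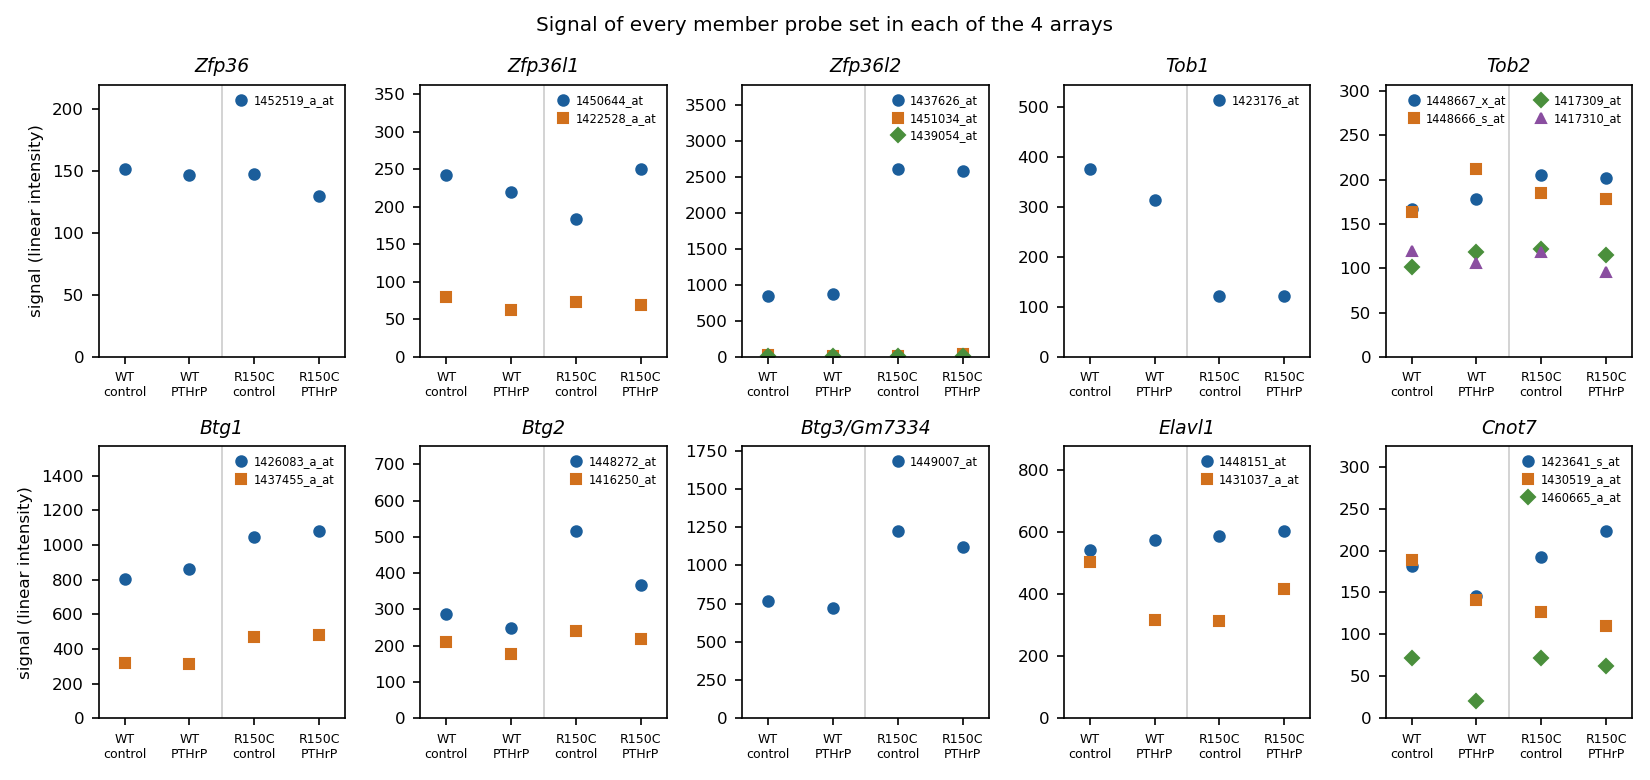
Signal (linear intensity) of all 21 member probe sets in the 4 arrays, 1 panel per gene and 1 marker per probe set; the vertical line separates the WT from the R150C line, and each point is 1 array. The brightest Zfp36l2 probe set stands at 841.7 and 871.6 in WT cells against 2608 and 2586 in R150C cells, and Tob1 at 376.6 and 313.8 against 121.2 and 122.8; levels of different probe sets are not comparable.

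Among the partners, Cnot7, a catalytic subunit of CCR4-NOT that Tob and Btg proteins bind, had 3 kept probe sets that disagreed. The brightest read 181.6 and 145.9 in WT cells and 192.0 and 223.9 in R150C cells, with differences of 0.08 ± 0.27 and 0.54 ± 0.27. The second read 188.7, 141.1, 126.7 and 109.8, lower in the R150C line by -0.51 ± 0.30 and -0.35 ± 0.30. The dimmest read 72.3, 21.1, 72.0 and 62.7, where the WT PTHrP array alone stood low and gave a difference of 1.05 ± 0.36 under PTHrP against 0.01 ± 0.36 in control medium. No direction for Cnot7 was shared by all 3.

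Elavl1, the stabilizing competitor at AU-rich elements, also split by probe set. The brighter read 543.7, 574.7, 586.4 and 605.3, nearly level, with line differences of 0.12 ± 0.24 and 0.04 ± 0.24. The dimmer read 502.6 and 317.0 in WT cells and 312.8 and 418.1 in R150C cells. It crossed over: the R150C line was lower in control medium, by -0.65 ± 0.23, and higher under PTHrP, by 0.35 ± 0.23.

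Counted by the brightest probe set, 1 of the 10 genes (Zfp36l2) stood at or above 2-fold in R150C cells in both media and 1 (Tob1) at least 2-fold lower in both. Over all 6926 kept genes, the share at 2-fold or more in both media was 1.41% higher and 0.347% lower. In control medium alone 2.31% were higher and 0.823% lower, and under PTHrP 2.09% and 0.866%. By probe sets, 2 of 19 members were at least 2-fold apart in control medium (3.51% of all kept). Under PTHrP 3 of 19 were (2.94% of all kept), the third being the dim Cnot7 probe set. With a pseudocount of 64 the count under PTHrP was 2 of 19. The median difference over the 19 kept member probe sets was 0.12 in control medium and 0.14 under PTHrP, beside -0.02 and -0.05 over all kept probe sets. Of the 10 Tob/Btg probe sets, which stand for 5 genes and include 4 of Tob2, 8 lay above 0 in control medium and 6 under PTHrP, where 47.4% and 43.6% of all kept probe sets did, with medians of 0.26 and 0.19, while the 4 kept probe sets of the Zfp36 family had medians of -0.06 and 0.12. The control and PTHrP comparisons of the lines share no array. In bulk RNA less message per cell and fewer cells that carry it cannot be told apart.

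**Figure D2:**
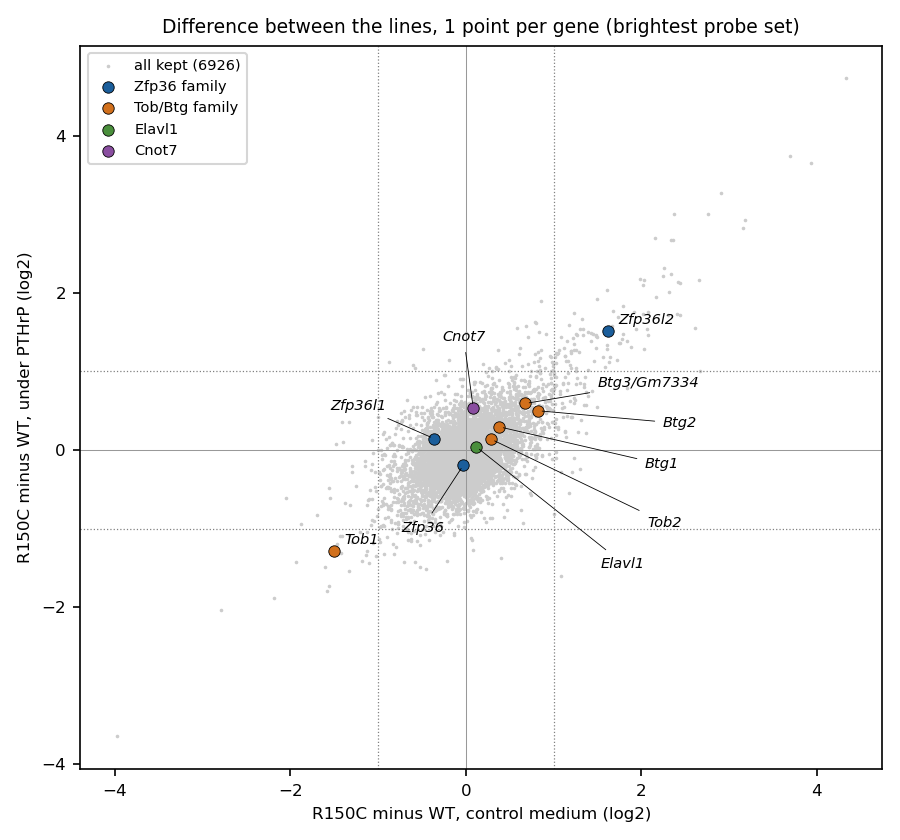
Difference between the lines (R150C minus WT, log2) in control medium on the x axis and under PTHrP on the y axis, 1 point per gene by its brightest probe set; grey, the 6926 kept genes, dotted lines, 2-fold. Zfp36l2 (1.62, 1.52) and Tob1 (-1.51, -1.28) lie beyond 2-fold on both axes at opposite ends. Btg1, Btg2 and the probe set of Btg3 and Gm7334 lie above 0 on both, as do Tob2, Elavl1 and Cnot7.

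PTHrP signals through Gs and cAMP, and the upstream sequences of the early response members were therefore read beside their responses. The RefSeq promoter table (GRCm38.p6) matched 8 of the 10 genes with 9 windows. The 250 bases before the start site are printed for Zfp36 and Btg2, whose motifs are those of early response genes, for Tob1, the member that was lower in the R150C line, and for Btg1. Capitals mark matches on either strand to a cAMP response element (TGACGTCA) or its shorter TGACG form, the AP-1 motif (TGANTCA), the CArG box bound by SRF, the EGR motif (GCGGGGGCG), the TATA motif (TATAAA) and a FOXO motif (GTAAACA). A full cAMP response element always contains the shorter form on both strands.
Zfp36, chr7:28379229-28379478, minus strand: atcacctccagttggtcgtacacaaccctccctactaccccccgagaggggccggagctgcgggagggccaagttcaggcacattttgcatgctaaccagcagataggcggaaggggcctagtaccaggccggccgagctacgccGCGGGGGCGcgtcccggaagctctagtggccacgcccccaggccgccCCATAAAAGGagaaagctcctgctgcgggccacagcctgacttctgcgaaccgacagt
Btg2, chr1:134079156-134079405, minus strand: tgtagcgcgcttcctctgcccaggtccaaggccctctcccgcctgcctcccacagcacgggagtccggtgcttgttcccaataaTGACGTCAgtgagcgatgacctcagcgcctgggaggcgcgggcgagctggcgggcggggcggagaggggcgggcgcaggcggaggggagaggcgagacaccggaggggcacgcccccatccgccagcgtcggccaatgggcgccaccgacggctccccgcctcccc
Tob1, chr11:94211204-94211453, plus strand: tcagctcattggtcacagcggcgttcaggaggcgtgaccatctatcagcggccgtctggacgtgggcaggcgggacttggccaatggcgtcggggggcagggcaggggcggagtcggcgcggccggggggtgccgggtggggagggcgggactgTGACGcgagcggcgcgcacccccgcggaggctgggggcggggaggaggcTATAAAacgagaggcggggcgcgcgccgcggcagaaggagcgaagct
Btg1, chr10:96616751-96617000, plus strand: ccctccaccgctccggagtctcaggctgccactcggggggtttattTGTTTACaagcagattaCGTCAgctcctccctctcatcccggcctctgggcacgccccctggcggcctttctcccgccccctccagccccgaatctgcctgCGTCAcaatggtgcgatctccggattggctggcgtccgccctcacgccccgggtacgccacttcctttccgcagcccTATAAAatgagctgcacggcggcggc

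Zfp36 held a CArG box from base -58 to -49 and an EGR motif from -105 to -97, counted from the start site. Of 32851 windows of the same length, 1.47% held a CArG box and 2.57% the EGR motif. Btg2 alone of the 9 member windows held the full cAMP response element, from -166 to -159, found in 1.55% of all windows. The shorter form stood in Btg1 (-187 to -183 and -103 to -99) and in Tob1 (-96 to -92), as in 17.8% of all windows. Tob1 and Btg1 held a TATA motif (12.4% of windows) and Btg1 a FOXO motif (3.17%), while Zfp36l1, not printed, held an AP-1 motif (6.75%) and a TATA motif. These matches describe the letters and are not measured binding sites.

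After 1 h of PTHrP no member probe set read 2-fold higher in either line. Btg2, with the full element, was lower after PTHrP by its brighter probe set in both lines, with differences of -0.15 ± 0.25 in WT cells and -0.47 ± 0.25 in R150C cells. Its second probe set gave -0.18 ± 0.26 and -0.12 ± 0.26. Zfp36 gave 0.01 ± 0.29 and -0.15 ± 0.29, Tob1 -0.20 ± 0.26 and 0.03 ± 0.26, and Zfp36l2 0.10 ± 0.23 and -0.0012 ± 0.23. These lie within the spread between arrays, except for the brighter Btg2 probe set in the R150C line. The second brightest Tob2 probe set gave 0.40 ± 0.27 in WT cells, beyond the spread, and -0.04 ± 0.27 in R150C cells. The other Tob2 probe sets, and those of Btg1 and of Btg3 and Gm7334, stayed within the spread. The brighter Zfp36l1 probe set gave -0.08 ± 0.26 in WT and 0.42 ± 0.26 in R150C cells, and the dimmer -0.24 ± 0.32 and -0.06 ± 0.32. The dimmer Elavl1 probe set gave -0.59 ± 0.23 and 0.41 ± 0.23, and the brighter 0.13 ± 0.24 and 0.06 ± 0.24.

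By the brightest probe set, 0 of the 10 genes were 2-fold apart after PTHrP in either line (0.39% of kept genes in WT cells, 0.289% in R150C cells). By probe sets, 1 of 19 was, the dimmest Cnot7 probe set in the WT line, at -1.20 ± 0.36, where 1.54% of all kept probe sets were at least 2-fold lower. The other Cnot7 probe sets gave -0.24 ± 0.27 and -0.33 ± 0.30 there. The WT PTHrP array also had a higher Gapdh 3′ to 5′ ratio (1.17 against 0.845 in its control), whose part in this value was not tested. limma's additive model, with the receptor as a term, tested the effect common to both lines over all 11313 kept probe sets with Benjamini-Hochberg adjustment and called 0.955% of them. That share was 0 without centring, after quantile normalization, without a filter and for gene means. None of the 19 member probe sets passed. An unadjusted p under 0.05 by limma was found for 1025 of the 11313 kept probe sets and for 1 of the 19 members. That member was the dimmest of Cnot7, with an effect of -0.67 (SE 0.20) and limma's adjusted p of 0.127 (0.127 to 0.821 for the smallest member p over the alternatives). In the R150C line alone it gave -0.15 ± 0.36, within the spread. The brighter Btg2 probe set followed with -0.31 (SE 0.18) and an adjusted p of 0.711. With 1 residual degree of freedom, this model takes its error from how the lines differ in their response. limma pools most of that error over all kept probe sets. The SE of the dimmest Cnot7 probe set, 0.20 beside a median of 0.183, thus reflects little of its own disagreement between -1.20 and -0.15. The error covers the spread between these arrays alone.

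**Figure D3:**
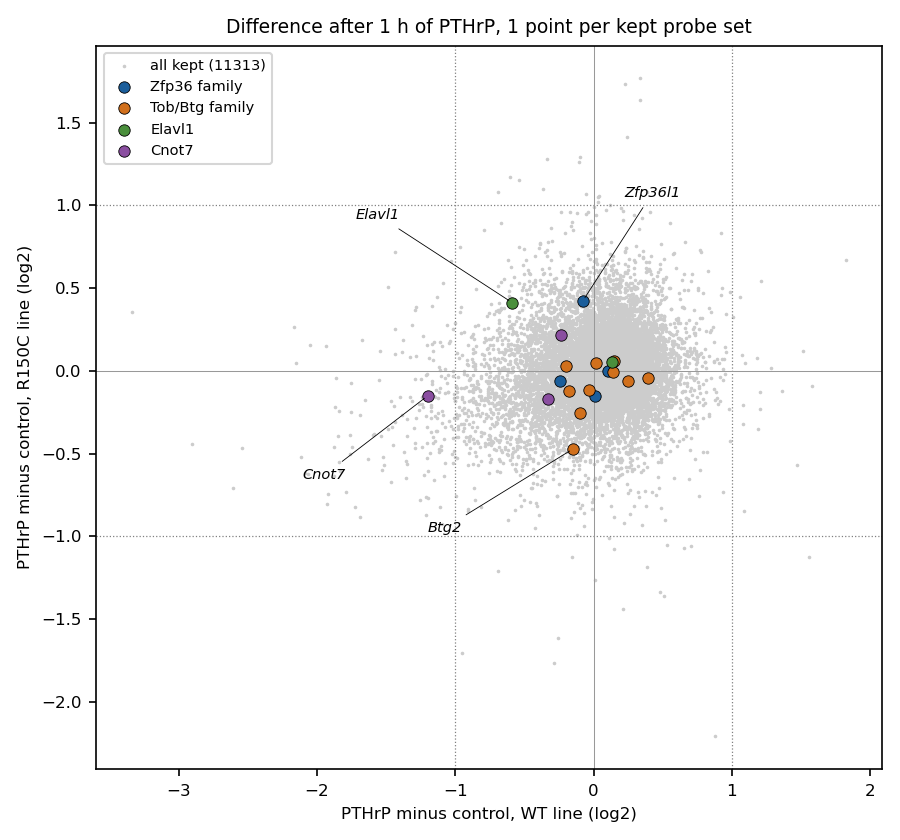
Difference after 1 h of PTHrP (PTHrP minus control, log2) in the WT line on the x axis and in the R150C line on the y axis, 1 point per kept probe set; grey, all 11313 kept, coloured, the 19 members, dotted lines, 2-fold. The dimmest Cnot7 probe set (-1.20, -0.15) is the only member beyond 2-fold, and the dimmer Elavl1 probe set (-0.59, 0.41) lies below 0 in one line and above 0 in the other.

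The rest of the decay machinery, with kinases and messages tied to Zfp36 proteins, was followed through 8 gene lists, each gene by its brightest probe set. The lists drew on textbook knowledge but were written with earlier results of these arrays known. Kept were 7 CCR4-NOT subunits and 6 genes of poly(A) tail binding and trimming. From decapping and 5′ decay 11 genes were kept, and 11 from the exosome, the 3′ to 5′ nuclease complex. None of them was 2-fold apart between the lines in either medium. Such differences were rare over all kept genes too: 2.31% were 2-fold higher and 0.823% lower in control medium, and 2.09% and 0.866% under PTHrP. The medians of the lists just named lay between -0.10 and 0.18 in control medium and between -0.16 and -0.02 under PTHrP. Over all kept genes the medians were 0.00 and -0.07. Cnot4, a ubiquitin ligase subunit of CCR4-NOT, was furthest off by the mean of both media, at 0.56 and 0.55, and its mean over all 5 probe sets and both media was -0.02. Paip1, a partner of poly(A)-binding protein, gave 0.46 and 0.44, the nuclease gene Dis3 0.37 and 0.53, the exosome subunit gene Exosc4 -0.60 and -0.35, and the deadenylase gene Parn -0.37 and -0.38. Dis3 had 1 probe set. Over all probe sets and both media the others were smaller, with means of 0.26 for Paip1, -0.21 for Exosc4 and -0.16 for Parn.

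Of 10 kept genes of other 3′ untranslated region binding proteins, 1 was at least 2-fold higher in both media, beside 1.41% of all kept genes. This was Samd4, a Smaug protein that recruits CCR4-NOT to stem-loops in messages, which read 242.3 and 235.3 in WT cells and 510.1 and 585.2 in R150C cells (1.04 and 1.23). Its paralogue Samd4b leaned the same way, at 0.81 and 0.69, with signals of 158.0 and 142.3 against 287.5 and 245.4. Rc3h2, a Roquin protein that destabilizes immune messages, gave 0.64 and 0.20, and 0.47 and 0.06 over its 2 probe sets. Of 11 kept kinases and 14-3-3 proteins that act on Zfp36 family proteins none reached 2-fold, beside the small shares of all kept genes given above. The largest was Mapkapk2, the kinase downstream of p38 that inactivates Zfp36 protein, at 0.60 and 0.34. Of the relatives that are not members, Btg4 was below the filter, with signals from 3.2 to 20.6.

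Of the 30 messages listed as bound by Zfp36 family proteins 16 were kept. Of these 9 read 2-fold or more above WT in both media, and 1, Fos, at least 2-fold lower. Over all kept genes these shares were 1.41% and 0.347%. In 6 of the 9 both WT arrays lay above the filter level of 46.8. The other 3, Il6, Lif and Pim1, had a WT array below it and were kept through their R150C signals, so their count follows in part from the filter. The list was written with earlier results of these arrays known and holds many growth factor early genes, so it is no independent evidence of a direction. The receptor gene of urokinase, Plaur, read 180.8 and 169.0 against 958.5 and 747.4, and the early response gene Ier3 650.5 and 596.2 against 1829 and 1708. In both, each R150C array lay well above each WT array. Il6, a cytokine gene and a classic message bound by Zfp36, read 27.5 and 22.3 in WT against 89.2 and 77.2 in R150C cells, the WT signals being too low for an exact fold. Pim1, a kinase gene, read 9.6 and 57.7 against 145.5 and 134.6. Under PTHrP it lay at the 2-fold bound by this probe set and at 0.68 over both of its probe sets, below 2-fold. Not every such message was higher: Cxcl1, a chemokine gene, gave -0.54 and -0.72.

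**Figure D4:**
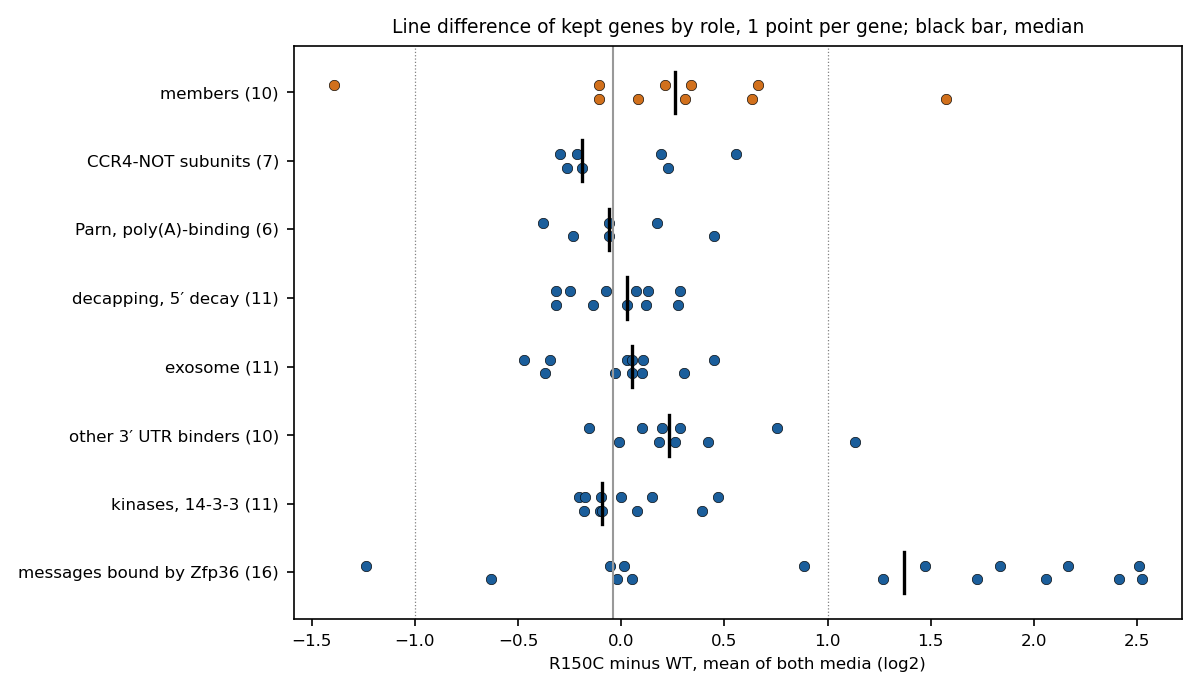
Difference between the lines (R150C minus WT, mean of both media, log2) for the 10 members by their brightest probe set and for the kept genes of 7 lists, 1 point per gene; black bars, medians, grey line, the median of all kept genes, dotted lines, 2-fold. Zfp36l2 and Tob1 lie beyond the 2-fold lines, and of the machinery and kinase lists Samd4 (1.13) alone does, while the messages reported as bound by Zfp36 proteins spread from -1.24 (Fos) to 2.52 (Myc).

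The genes whose profile over the 4 arrays was nearest to each of the 4 most variable members were taken by the root mean square difference of gene-centred log2 values among 6926 kept genes. For Zfp36l2 they were Srf (0.021), Gcnt2 (0.057) and Spsb1 (0.065). Srf, which encodes the factor that binds CArG boxes, read 165.4 and 171.6 in WT cells and 555.7 and 529.8 in R150C cells. For Tob1 they were the Wnt receptor gene Fzd2 (0.073), Zfp503 (0.081) and Aqp5 (0.097), and Fzd2 read 663.8 and 601.5 against 228.9 and 258.7. For Btg2 they were Mphosph10 (0.047), Max (0.061) and Tmbim1 (0.073), and for the probe set of Btg3 and Gm7334 Wsb1 (0.0091), Tacc2 (0.020) and Tnfaip3 (0.024). With 4 arrays and so many genes a near match is easily found, and these names are a description.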

How the data were processed

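The authors deposited 1 linear intensity per probe set and array. The submitters' processing notes name Affymetrix Expression Console. Its version and how it summarised probes were not given in the sources used here. All 4 arrays shared a 2% trimmed mean of 150.1, as after a global scaling. Of 22690 probe sets 64 controls were left out. Of the others 20380 had 1 gene symbol, 691 several and 1555 none. Symbols were updated through Entrez identifiers for 20351 of them. A gene stands by its brightest probe set, and 6926 of 12393 genes were kept. Companion genes were named where 2-fold apart the same way in both media, plus up to 4 per list by size, of which the text gives those it turns on, and the 3 kept genes nearest in profile for the 4 members with the largest SD over the arrays. limma 3.58.1 in R 4.3.3 was tested on simulated data for the PTHrP effect over 11313 probe sets. It called 94 of 100 changed 2-fold, 30 of 100 changed 1.5-fold and 7 of 11113 unchanged. The simulated noise was normal, with 1 SD for all probe sets and no shift of whole arrays, whereas the real scatter varied with level. These counts therefore check the code and are not rates for the real arrays. The number of arrays limits the precision. The members and lists were chosen with earlier results of these data known. Alternatives covered centring, quantile normalization, pseudocount, filter, probe set rule and fold.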

Additional observations from a re-analysis of the deposited data

Results flagged for a closer look

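The dimmer Elavl1 probe set differed in opposite directions after PTHrP, by -0.59 in WT cells and 0.41 in R150C cells, each larger than the SD of 0.29 of a difference between arrays. The same 4 arrays give line differences of -0.65 in control medium and 0.35 under PTHrP. With 1 array per group this difference was not tested, and the brighter Elavl1 probe set gave 0.13 and 0.06 after PTHrP.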

How the results depend on the processing

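Tob1 and Zfp36l2 kept their direction and stayed past 2-fold in both media under 3 other scalings and with pseudocounts of 1 and 64. Changing the filter cannot move these differences, because the centring always used the main filter. Both genes were kept without a filter and at the 75th percentile. Tob1 ran from -1.62 to -1.24 in control medium and from -1.38 to -1.04 under PTHrP. Averaging each gene over its probe sets, the number of member genes at 2-fold went from 2 to 1 in control medium, from 2 to 1 under PTHrP and from 2 to 1 in both media, the lost gene being Zfp36l2. Of the 6243 genes kept by that rule, 108 were 2-fold higher and 46 lower in each medium, and 77 and 19 in both. At 1.5-fold the count in control medium was 4 of 10, with 3 higher and 1 lower. Of all 6926 kept genes 477 were higher and 351 lower at that fold. The count of all kept probe sets that limma called for PTHrP, 108 (14 higher, 94 lower), was 100 (21 and 79) when centred on all probe sets, 48 and 37 with pseudocounts of 1 and 64, 70 (18 and 52) with the stricter filter, and 0 without centring (810 at an unadjusted p under 0.05), after quantile normalization (822), without a filter (1414) and for gene means (310). The cause was not tested. None of these called a member, with smallest adjusted p from 0.127 to 0.821. In the WT line after PTHrP 11 kept genes were 2-fold higher and 16 lower, but 20 and 9 when centred on all probe sets, a centring that moved the median of kept probe sets there from 0.06 to 0.18. No pairing beyond the line was possible because each group has 1 array and the labels carry no replicate numbers for a block. The receptor term in limma's model already sets PTHrP against control within each line. With 1 array per group none was left out.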
